A study of Mus musculus with 2 samples.

Results

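Cluster 4 is the group of colonic epithelial cells that carry the number 4 in the authors' deposited table of cells, and its leading genes over the other cells are those of colonocytes. That number alone chose them, and it gave 1150 of 7863 cells: 490 of 3653 in the Mettl14 KO library and 660 of 4210 in the Mettl14 WT library. The cluster took 13.4% of the KO cells (12.3 to 14.6) and 15.7% of the WT cells (14.6 to 16.8), with exact 95% Clopper-Pearson intervals. Both libraries are from C57BL/6 mice, genotyped Mettl14 KO or Mettl14 WT, and the series text gives an age or time of 2 weeks without saying which. Live EpCAM+ cells of the colon were sorted and made into 10x Genomics 3' v2 libraries, 1 per genotype. The labels do not give the number of mice pooled, their sex, or how and in which cells Mettl14 was deleted. With 1 library per genotype no test was possible, so every interval below covers counting error only and a difference between the libraries cannot be told apart from a difference between the mice or preparations.

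Colonocytes are the absorptive cells of the upper crypt and surface of the colon. They take up water and sodium, exchange chloride for bicarbonate with the help of carbonic anhydrases, burn butyrate made by gut bacteria, and carry a brush border that is shielded by secreted and membrane-bound antimicrobial proteins. METTL14 is the RNA-binding partner of METTL3 in the complex that writes N6-methyladenosine onto messenger RNA, a mark that alters the stability and translation of transcripts.

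Cluster 4 held 4945227 UMIs in the KO library and 9808691 in the WT library, with a median per cell of 9210 in KO and 12288.5 in WT. A UMI is a molecular tag that counts a captured transcript once. The median mitochondrial share was 12.3% in KO and 13.3% in WT cells of the cluster, against 11.5% in KO and 11.6% in WT cells outside it. A cell was counted as a Xist cell, here and below, if it lacked Y-linked UMIs and its Xist count reached 3. Xist cells made up 43.7% of the KO and 32.6% of the WT cells of cluster 4. Cells with Y-linked UMIs and no Xist made up 27.3% in KO and 43.3% in WT, and cells with both kinds 7.76% in KO and 12.6% in WT, so each library held cells of both sexes. The libraries shared 2 cell barcodes, and 1 cell of cluster 4 carried one of them. Mettl14 itself (chromosome 3, 123368297 to 123386108, minus strand, GRCm38) had 21 UMIs in KO cells and 112 in WT cells of the cluster, or 4.25 CPM in KO and 11.4 in WT, with a log2 ratio of KO over WT of −1.43 (−2.17 to −0.75). It was lower in KO but detected. CPM here are the summed UMIs of a gene in a group of cells, scaled to a common total, and brackets after a ratio hold its 95% counting interval.

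The label was checked against 5 defining colonocyte markers: Aqp8, Car4, Tgm3, Atp12a and Ceacam20. All 5 had UMIs in cluster 4 of both libraries, and at least 1 was present in 129 KO cells (26.3%, 22.5 to 30.5) and 238 WT cells (36.1%, 32.4 to 39.9). Most cells of the cluster therefore carried none of them at this depth: 361 KO and 422 WT cells. With each cell thinned to 3000 UMIs, which left out 10 KO and 21 WT cells with fewer, the share was 19.2% in KO and 27.4% in WT cells of cluster 4, against 2.08% of KO and 1.82% of WT cells outside it. Among the outside cells, cluster 5 stood higher, at 4.70% in KO (1.91 to 9.44) and 11.3% in WT (5.80 to 19.4). With all UMIs counted it had 9.93% in KO and 26.3% in WT. Listed colonocyte markers beyond these 5 did not all favour cluster 4. After thinning, Krt20 was found in 6.88% of KO and 7.82% of WT cells of cluster 4. In cluster 5 it was found in 19.5% of KO and 38.1% of WT cells. Guca2a had 27.3% in KO and 31.8% in WT in cluster 4, against 23.8% in KO and 87.5% in WT for clusters 1 and 2. Car1 had 12.5% in KO and 9.86% in WT, against 3.51% in KO and 2.06% in WT outside the cluster. Within cluster 4, cells with a defining marker were deeper than cells without, with median UMIs of 10620 against 8838 in KO and 13249.5 against 11780.5 in WT. They also had a higher median mitochondrial share, 14.8% against 11.6% in KO and 16% against 12% in WT. The group is therefore called cluster 4 below, and the marker-positive cells are described apart where that changes a value.

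The summed level of all 9 listed colonocyte markers was 886.1 CPM in KO and 873.0 CPM in WT cells of cluster 4. These like sums join opposite differences, with Aqp8 at 42.9 CPM in KO and 194.4 in WT and Car1 at 293.6 in KO and 109.3 in WT. The sums were 33.4 to 288.9 CPM over the other KO clusters and 133.5 to 1314 CPM over the other WT clusters. The 1 WT cluster above cluster 4 was cluster 2, where Guca2a alone gave 13064 of the 13164 UMIs. The 8 goblet markers summed to 3738 CPM in KO and 3504 CPM in WT, far under the maximum over other clusters of 43525 in KO and 40477 in WT. The 6 cycling markers summed to 222.6 CPM in KO and 118.9 in WT, and the 6 stem cell markers to 603.2 CPM in KO and 597.6 in WT. Immune markers summed to 79.7 CPM in KO, of which S100a9 gave 15.4, and 39.4 CPM in WT, with Cd3e at 0 in both. The 5 M cell markers summed to 181.4 CPM in KO and 48.4 in WT, nearly all from Ccl20 and Anxa5. The 2 deep crypt secretory markers, Reg4 and Kit, summed to 62.7 CPM in KO and 120.5 in WT. Enteroendocrine, tuft and stromal markers each stayed under 20 CPM in both libraries, with Tph1 at 0 in both and Col1a1, Col3a1 and Dcn at 0 in KO. The pancreatic enzyme markers summed to 0.404 CPM in KO and 8.16 in WT.

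The libraries also stood apart within the cluster. In a clustering of all cells made without aligning the libraries, 285, 114 and 44 of the KO cells of cluster 4 lay in clusters that scored highest for cycling, M cell and goblet markers and held at most 3 WT cells each. Of the WT cells, 290 and 46 lay in clusters that scored highest for stem cell markers, and 191 and 65 in clusters that scored highest for colonocyte markers. A cluster of 660 WT and 12 KO cells, with 42 WT cells of cluster 4, scored highest for tuft markers. The scores use markers that themselves differ between the libraries, such as Ccl20 for M cells and Lgr5 for stem cells. They are therefore not separate from those differences and do not give cell identities. The colonocyte-scored clusters held 12 KO and 256 WT cells of cluster 4, too few KO cells for any ratio. What part this had in the KO to WT differences below was not tested.

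Genes that mark cluster 4 were ranked by their ratio to all other cells within each library, which describes how the cells were grouped and is no test. Of 5089 genes measured in both libraries, 127 (2.5%) were at least 2-fold higher in cluster 4 than in the other cells of each library. Transglutaminase 3 (Tgm3), which cross-links proteins, led the ranking with a log2 ratio of cluster 4 over other cells of 6.15 in KO and 6.02 in WT. The acute phase protein gene Saa1 followed with 5.57 in KO and 6.14 in WT, and the water channel gene Aqp8 with 5.32 in KO and 6.32 in WT. The proton and potassium pump subunit Atp12a had 3.98 in KO and 5.57 in WT. The cytochrome P450 Cyp2c55, the sodium pump regulator Fxyd4, the carboxylesterase Ces2c, the serine protease Prss30, the brush border adhesion molecule Ceacam20, the bile acid exporter subunit Slc51a, carbonic anhydrase Car1 and the amino acid transporter Slc6a14 were also among the first 15, together with Tnni1, Emp1 and Lrrc19. These 15 genes thus cover ion, water, bile acid and amino acid transport. All 15 had a ratio over 2.8 on the log2 scale in each library.

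Aqp8 lies at chromosome 7, 123462291 to 123468004, plus strand. Saa1 lies at chromosome 7, 46740497 to 46742980, minus strand, and Tgm3 at chromosome 2, 130012349 to 130050399, plus strand (GENCODE vM21, GRCm38). The 250 bases before the start of each gene are shown because these 3 genes carry the cell fractions that follow (RefSeq, GRCm38.p6, read along the gene's strand). Capitals mark matches, on either strand, to the nuclear receptor half-site AGGTCA and to the C/EBP motif TTGCNNAA; the kappaB motif (GGG, any 2 bases, TTTCC) was searched too. The windows are chr7:123462044-123462293 on the plus strand for Aqp8, chr7:46742981-46743230 on the minus strand for Saa1 and chr2:130012090-130012339 on the plus strand for Tgm3.
Aqp8: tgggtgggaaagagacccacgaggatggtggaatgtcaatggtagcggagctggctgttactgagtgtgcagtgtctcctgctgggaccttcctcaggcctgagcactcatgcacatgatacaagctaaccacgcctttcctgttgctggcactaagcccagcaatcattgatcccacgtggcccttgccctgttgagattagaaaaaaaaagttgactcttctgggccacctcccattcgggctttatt
Saa1: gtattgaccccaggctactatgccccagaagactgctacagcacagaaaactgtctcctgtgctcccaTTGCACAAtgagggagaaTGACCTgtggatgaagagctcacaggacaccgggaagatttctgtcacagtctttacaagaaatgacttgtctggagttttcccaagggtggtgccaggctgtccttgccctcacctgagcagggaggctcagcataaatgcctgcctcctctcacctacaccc
Tgm3: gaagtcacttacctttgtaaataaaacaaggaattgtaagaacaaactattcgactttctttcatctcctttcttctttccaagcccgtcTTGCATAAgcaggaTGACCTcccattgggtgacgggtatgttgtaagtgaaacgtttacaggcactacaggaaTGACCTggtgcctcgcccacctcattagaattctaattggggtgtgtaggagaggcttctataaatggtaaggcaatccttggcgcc
The Saa1 window held the C/EBP letters at −182 and the half-site at −164 from the start. The Tgm3 window held them at −160, and the half-site at −146 and −87. The Aqp8 window held no match. Of 32851 mouse promoter windows of this length, 14.0% held the half-site, 9.56% the C/EBP letters and 1.41% the kappaB letters, so these matches are a description of the letters only.

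Aqp8, the water channel of the colonocyte's apical side, was carried by fewer KO cells. It had UMIs in 30 of 490 KO cells (6.12%, 4.17 to 8.63) and in 145 of 660 WT cells (22.0%, 18.9 to 25.3). At 3000 UMIs per cell the share was 3.54% in KO (2.08 to 5.61) and 16.4% in WT (13.6 to 19.5), so the intervals stayed apart at equal depth. The goblet-like clusters 1 and 2, which should lack the gene, had 0.239% in KO and 0.628% in WT at that depth, with unthinned medians of 9963 UMIs per KO cell and 12226 per WT cell. The enteroendocrine-like cluster 5 had 0.671% in KO, 1 of 149 cells with an interval up to 3.68%, and 1.03% in WT. In KO that interval overlaps the one of cluster 4. Over the whole cluster Aqp8 had 212 UMIs or 42.9 CPM in KO cells and 1907 UMIs or 194.4 CPM in WT cells, a log2 ratio of −2.18 (−2.39 to −1.98). Among cells with at most 10% mitochondrial UMIs the ratio was −1.42 with an interval that includes 0 (−3.21 to 0.08). At 3000 UMIs per cell the positive cells had a median of 2 UMIs in KO (17 cells) and 3 in WT (105 cells); with all UMIs counted the medians were 3.5 in KO and 9 in WT, and the highest cells 47 in KO and 68 in WT. With all UMIs counted, at least 10 were found in 8 KO cells (1.63%) and 70 WT cells (10.6%).

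Saa1 encodes serum amyloid A1, a secreted retinol-binding acute phase protein made by intestinal epithelium in contact with bacteria. It was found in 108 KO cells (22.0%, 18.4 to 26.0) and 186 WT cells (28.2%, 24.8 to 31.8). At 3000 UMIs per cell the shares were 15.8% in KO (12.7 to 19.4) and 18.3% in WT (15.4 to 21.5), with overlapping intervals. The background at that depth was 2.15% in KO and 3.06% in WT for clusters 1 and 2, and 3.36% in KO and 2.06% in WT for cluster 5. The level per positive cell differed more than the share. Positive cells had a median of 2.5 UMIs in KO and 18 in WT after thinning (4 in KO and 15.5 in WT with all UMIs), and 12 KO cells (2.5%) against 56 WT cells (8.76%) kept at least 20 UMIs after thinning. The summed level was 586.0 CPM in KO and 1106 CPM in WT, a log2 ratio of −0.92 (−0.98 to −0.86), which misses the 2-fold rule used below. It passed 2-fold under 6 other settings, with ratios from −1.70 to −1.02, among them −1.70 at equal depth. Among the 125 KO and 94 WT cells with at most 10% mitochondrial UMIs the ratio turned to 1.23 (0.82 to 1.64), where 7.2% of KO and 11.7% of WT cells had the gene. Saa1 is a near copy of Saa2: 94.3% of the 297 aligned bases of their last 300 are identical, so reads could be split between them.

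Tgm3 differed little. It was found in 78 KO cells (15.9%, 12.8 to 19.5) and 125 WT cells (18.9%, 16 to 22.1), and after thinning in 11.5% of KO (8.75 to 14.7) and 13% of WT cells (10.5 to 15.8). Clusters 1 and 2 had 0.239% in KO and 0.392% in WT, and cluster 5 had 1.34% in KO and 0 of 97 WT cells, for which the exact interval reaches 3.73%. Its level was 98.1 CPM in KO and 113.1 CPM in WT, a log2 ratio of −0.21 (−0.36 to −0.05). Positive cells had a median of 2 UMIs in KO and 2 in WT after thinning. The 3 genes are thus ordered Aqp8, Saa1, Tgm3 by the size of the KO to WT difference in level. Tgm3 turned to a ratio of 0.99 among cells with at most 10% mitochondrial UMIs, where only 1.6% of KO and 3.19% of WT cells had the gene.

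**Figure D1:**
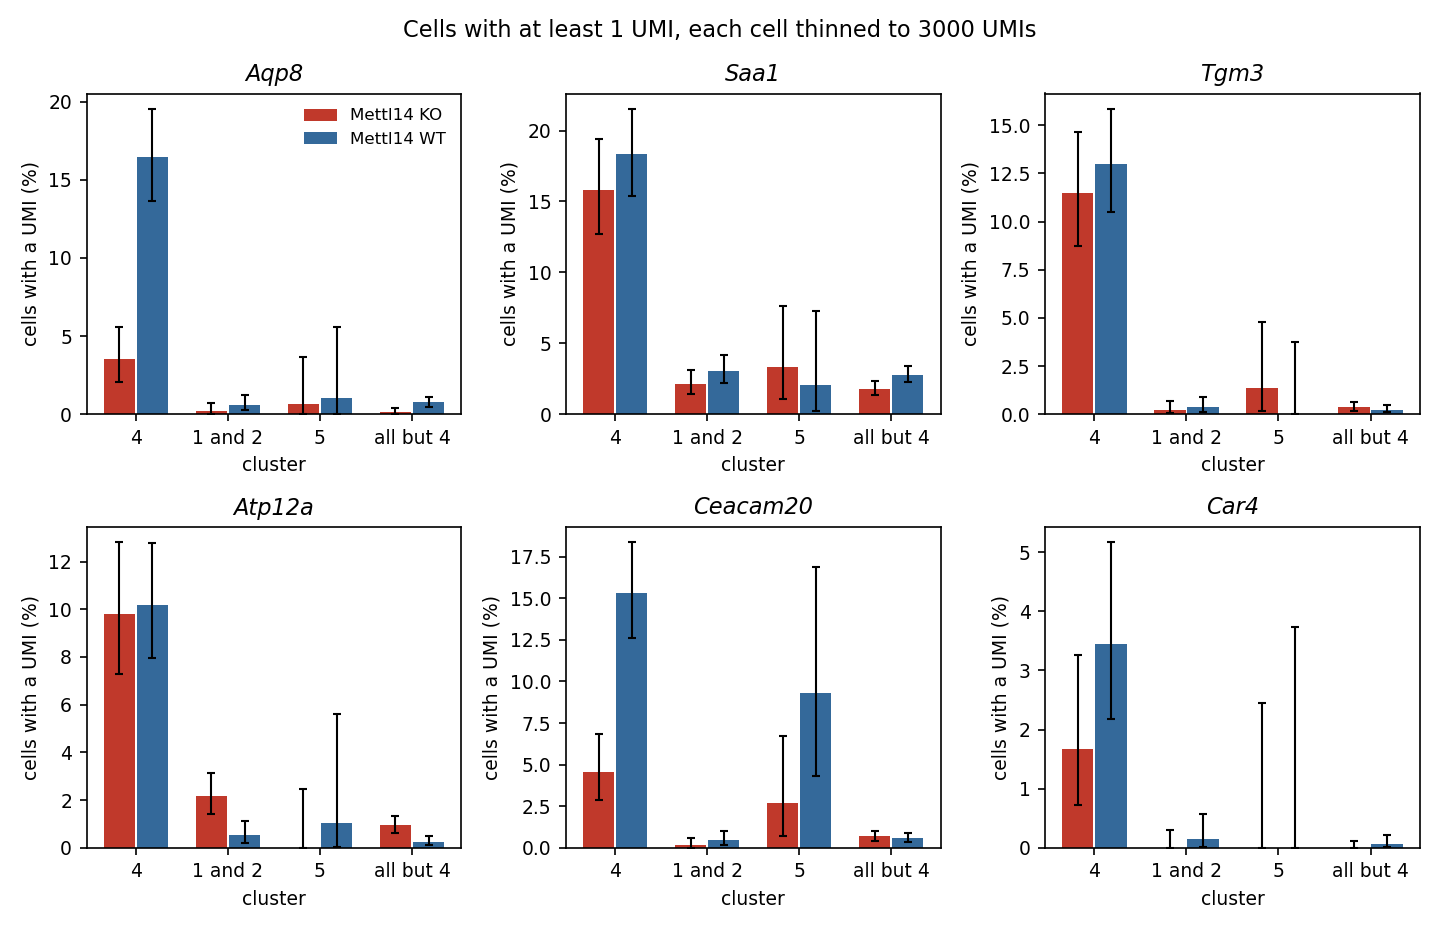
Share of cells with at least 1 UMI (vertical axis, percent) of 6 genes in cluster 4, clusters 1 and 2, cluster 5 and all cells but cluster 4 (horizontal axis), each cell thinned to 3000 UMIs. Bars are the KO library (red) beside the WT library (blue), and lines are exact 95% Clopper-Pearson intervals. Aqp8 stands at 3.54% in KO and 16.4% in WT cells of cluster 4, while Tgm3 stands at 11.5% in KO and 13% in WT.

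**Figure D2:**
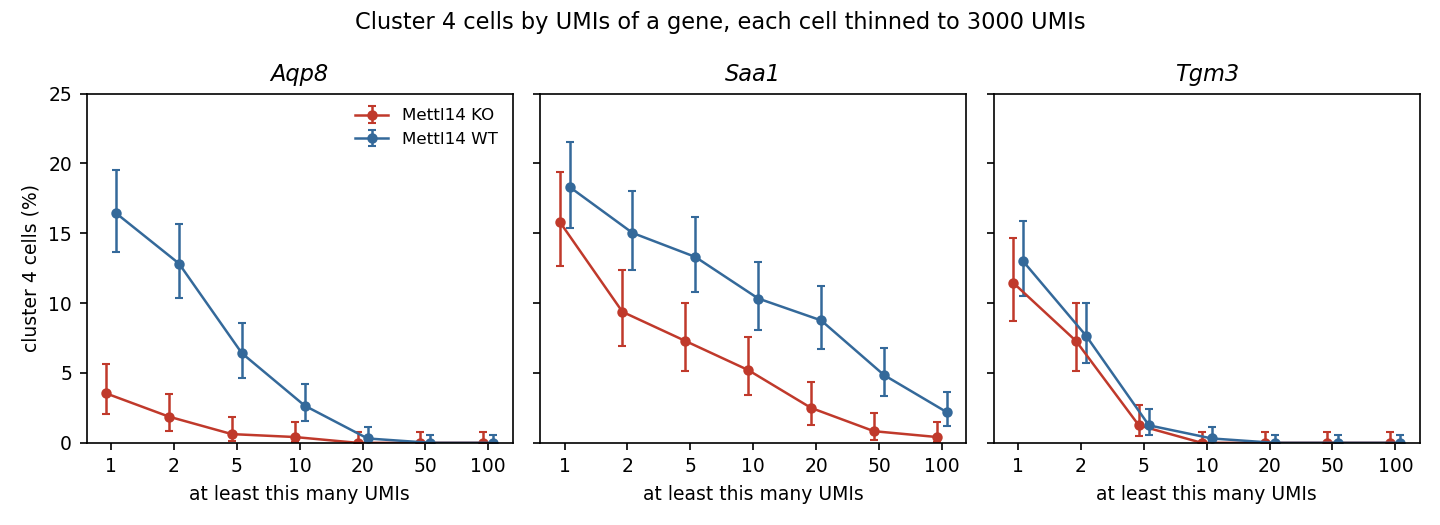
Share of cluster 4 cells (vertical axis, percent) that keep at least the number of UMIs on the horizontal axis for Aqp8, Saa1 and Tgm3, each cell thinned to 3000 UMIs. Points are the KO library (red) and the WT library (blue), with exact 95% Clopper-Pearson intervals. For Saa1 the KO and WT points lie at 15.8% in KO and 18.3% in WT for 1 UMI and at 2.5% in KO and 8.76% in WT for 20 UMIs, while the lines of Tgm3 run together.

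The 3 genes were not spread evenly over the cells. With all UMIs counted, Saa1 was found in 28 of the 30 Aqp8-positive KO cells (93.3%) and in 115 of the 145 Aqp8-positive WT cells (79.3%). Read the other way, 25.9% of the Saa1-positive KO cells and 61.8% of the Saa1-positive WT cells had Aqp8, against 6.12% of all KO and 22.0% of all WT cells of the cluster. At 3000 UMIs per cell these shares were 18.4% in KO and 67.5% in WT, against 3.54% of all KO and 16.4% of all WT cells. The pair Saa1 and Tgm3 without Aqp8 was found in 41 KO cells (8.37%) and 20 WT cells (3.03%), and the pair Aqp8 and Saa1 without Tgm3 in 8 KO cells (1.63%) and 60 WT cells (9.09%). The first pair thus had more KO cells and the second more WT cells. All 3 were found in 20 KO cells (4.08%) and 55 WT cells (8.33%), and none of them in 364 KO cells (74.3%) and 397 WT cells (60.2%). The 49 KO and 66 WT cells richest in Saa1, or 10% of the cells, held 96.3% of the KO and 90.8% of the WT UMIs of that gene.

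Across thinned cells of the cluster, 480 in KO and 639 in WT, the Spearman correlation of Aqp8 with Saa1 was 0.38 in KO and 0.69 in WT. With Ceacam20 it was 0.23 in KO and 0.66 in WT, and with Tgm3 0.29 in KO and 0.30 in WT. The correlation of Tgm3 was 0.49 in KO and 0.63 in WT with Atp12a, and 0.55 in KO and 0.38 in WT with Saa1, so Saa1 was the closer of these 2 in KO and Atp12a in WT. At this depth 49.1% of the Tgm3-positive KO cells and 57.8% of the WT ones had Atp12a; with all UMIs counted the order was the other way, 73.1% in KO and 62.4% in WT. Cells share depth and free RNA within a library, so these values describe the libraries. Among the 7346 genes with a UMI in at least 10% of cells of each library, the 5 closest to Aqp8 by the lower of the 2 values were Ces2c (0.44 in KO, 0.57 in WT), Saa1, the metalloprotease Mep1a (0.35 in KO, 0.62 in WT), the retinol-binding protein Rbp2 (0.33 in KO, 0.46 in WT) and the sodium and proton exchanger Slc9a2 (0.32 in KO, 0.50 in WT). Car4 was found in too few cells to enter that ranking, but its correlation with Aqp8 was 0.51 in KO and 0.42 in WT. With all UMIs counted, all 27 Car4-positive WT cells and 8 of the 12 Car4-positive KO cells had Aqp8.

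The other defining markers differed from each other in how they stood in KO. Ceacam20 was lower, with 101 UMIs or 20.4 CPM in KO and 573 UMIs or 58.4 CPM in WT, a log2 ratio of −1.52 (−1.84 to −1.21), while in all cells outside the cluster the ratio was 0.08. That pooled value joins clusters of opposite sign, with 1.41 (0.78 to 2.04) in cluster 0 and −1.64 (−2.75 to −0.64) in cluster 5. In cluster 3 the ratio was −2.36 (−5.52 to −0.29), from only 2 UMIs in KO and 17 in WT. The lower level was thus not confined to cluster 4. Ceacam20 was found in 4.58% of KO and 15.3% of WT cells of cluster 4 after thinning. Cluster 5 also carried it, at 2.68% in KO and 9.28% in WT. Atp12a had 80.5 CPM in KO and 70.8 in WT, a ratio of 0.19 (0.00 to 0.37), and was found in 9.79% of KO and 10.2% of WT cells after thinning. Car4, the membrane-bound carbonic anhydrase of the colon surface, had 102 UMIs in KO and 158 in WT, or 20.6 CPM in KO and 16.1 in WT, in 12 KO and 27 WT cells. Its ratio of 0.36 had an interval that includes 0 (−0.02 to 0.72). It was 0.04 without the top cell of each library, which held 28 UMIs in KO and 15 in WT.

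Over all genes, KO was compared with WT within cluster 4 for the 6168 of 17829 genes that had at least 50 UMIs over both libraries and at least 20 CPM in 1 of them. By the size rule of 2-fold, 455 genes (7.38%) were higher in KO and 179 (2.9%) were lower, so 71.8% of the differing genes were higher. With mitochondrial, ribosomal-protein and haemoglobin genes left out of the totals, which shifts every log2 ratio by −0.10 and also raises the number of measured genes to 7736, 53.7% were higher. With the median ratio set to 0 over the same 6168 genes 68.1% were higher, and among marker-positive cells 52.4%. The median log2 ratio over the measured genes was 0.04. Outside cluster 4, 385 genes (6.15%) were higher and 181 (2.89%) lower. Of the 455 higher genes of cluster 4, 279 were also higher in the other cells, 140 were within 2-fold there, 35 were not measured there and 1 was lower. Of the 179 lower genes, 76 were also lower outside, 51 were within 2-fold, 52 were not measured and 0 were higher. As each count rests on 1 library per genotype, the shares above are the background against which the lists below are read.

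Genes of water and ion handling did not move as a group. Of 3 measured water channels, Aqp8 and Aqp1 were lower and Aqp4, a basolateral channel, was higher, with 553.7 CPM in KO and 223.5 in WT (1.31, 1.23 to 1.39). Of 4 measured carbonic anhydrases only Car1 passed the rule, with 293.6 CPM in KO and 109.3 in WT (1.43, 1.31 to 1.54), against a ratio of 1.63 in the other cells. Among 9 anion exchange and chloride transport genes the exchanger Slc26a3 was higher, with 104 UMIs in KO and 65 in WT (1.67, 1.21 to 2.14), and the bicarbonate cotransporter Slc4a4 was lower (−1.03). The 12 measured sodium, proton and potassium transport genes had a median of 0.08, and the apical sodium and proton exchanger Slc9a3 alone was called, with 113 UMIs in KO and 20 in WT (3.49, 2.79 to 4.25). Of 4 measured guanylin pathway genes, the hormone gene Guca2b was higher, with 297.3 CPM in KO and 81.3 in WT (1.87, 1.75 to 2.0), while Guca2a stood at 277 CPM in KO and 273 in WT. The Car1 and Guca2b values changed with the mitochondrial share of the cells. Among cells with at most 10% mitochondrial UMIs the ratio was 0.07 for Car1 and −1.04 for Guca2b, and Slc26a3 had too few UMIs there for a value.

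A set of 4 genes of iron uptake, export and storage was lower in KO within cluster 4. Slc11a2 (chromosome 15, 100387898 to 100425072, minus strand), which carries ferrous iron across the apical membrane, had 130 UMIs or 26.3 CPM in KO and 1818 UMIs or 185.3 CPM in WT. Its log2 ratio was −2.82 (−3.09 to −2.56), against −0.13 (−0.32 to 0.06) in the cells outside, where clusters 0, 1, 2, 3 and 5 ranged from −0.39 to −0.04. Ferroportin (Slc40a1), the exporter, had 144.6 CPM in KO and 372.6 in WT (−1.37, −1.48 to −1.25; −0.56 outside). The metalloreductase Steap4 (−1.96; −1.16 outside) and the ferritin receptor Ncoa4 (−1.16; −0.12 outside) were lower as well, so Steap4 was lower in the other cells too. The list of 11 measured iron handling genes was drawn up after the data were seen, so its 4 lower and 0 higher members, median −0.24, are a description.

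Selenop (chromosome 15, 3268547 to 3280508, plus strand) encodes the plasma carrier of selenium, selenoprotein P. It had 573 UMIs or 115.9 CPM in KO and 6091 UMIs or 621.0 CPM in WT, a ratio of −2.42 (−2.55 to −2.30), against 0.29 (0.20 to 0.37) outside the cluster. At 3000 UMIs per cell its transcript was found in 15.4% of KO and 32.9% of WT cells of cluster 4, against 18.9% in KO and 15.8% in WT for clusters 1 and 2, and 52.3% in KO and 55.7% in WT for cluster 5. The log2 ratio of the level in cluster 4 to that in the other cells was 0.90 in KO and 3.61 in WT, and in KO the level of cluster 5 was higher, at 272.7 CPM. Macrophages are known to express Selenop. Immune marker UMIs were concentrated in 17 KO and 22 WT cells, and without those cells the ratio was −2.64. Cells with at most 2 such UMIs were kept, and what part immune cell RNA had in the Selenop ratio was not tested.

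These ratios were further from 0 in the marker-positive cells than in the remaining ones, a difference that was not tested. In marker-positive cells Slc11a2 had 56.9 CPM in KO and 451.8 in WT (−2.99), while in cells with no defining marker it had 13.5 CPM in KO and 14.6 in WT (−0.11, −0.65 to 0.42). Selenop had 305.1 CPM in marker-positive KO cells and 1511 in marker-positive WT cells (−2.31), and 36.7 CPM in KO and 50.9 in WT among the rest (−0.47). Slc40a1 had 329.1 CPM in KO and 807.6 in WT among marker-positive cells (−1.30), and 67.4 CPM in KO and 93.9 in WT among the rest (−0.48). The level outside the marker-positive cells was thus low in both libraries. Among marker-positive cells, 23.3% in KO and 60.9% in WT had Aqp8, so the sets differ in makeup between the libraries. Among cells with at most 10% mitochondrial UMIs the ratios were −0.68 for Slc11a2, −0.62 for Selenop and −0.25 for Slc40a1, and the part of these differences in makeup was not tested.

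**Figure D3:**
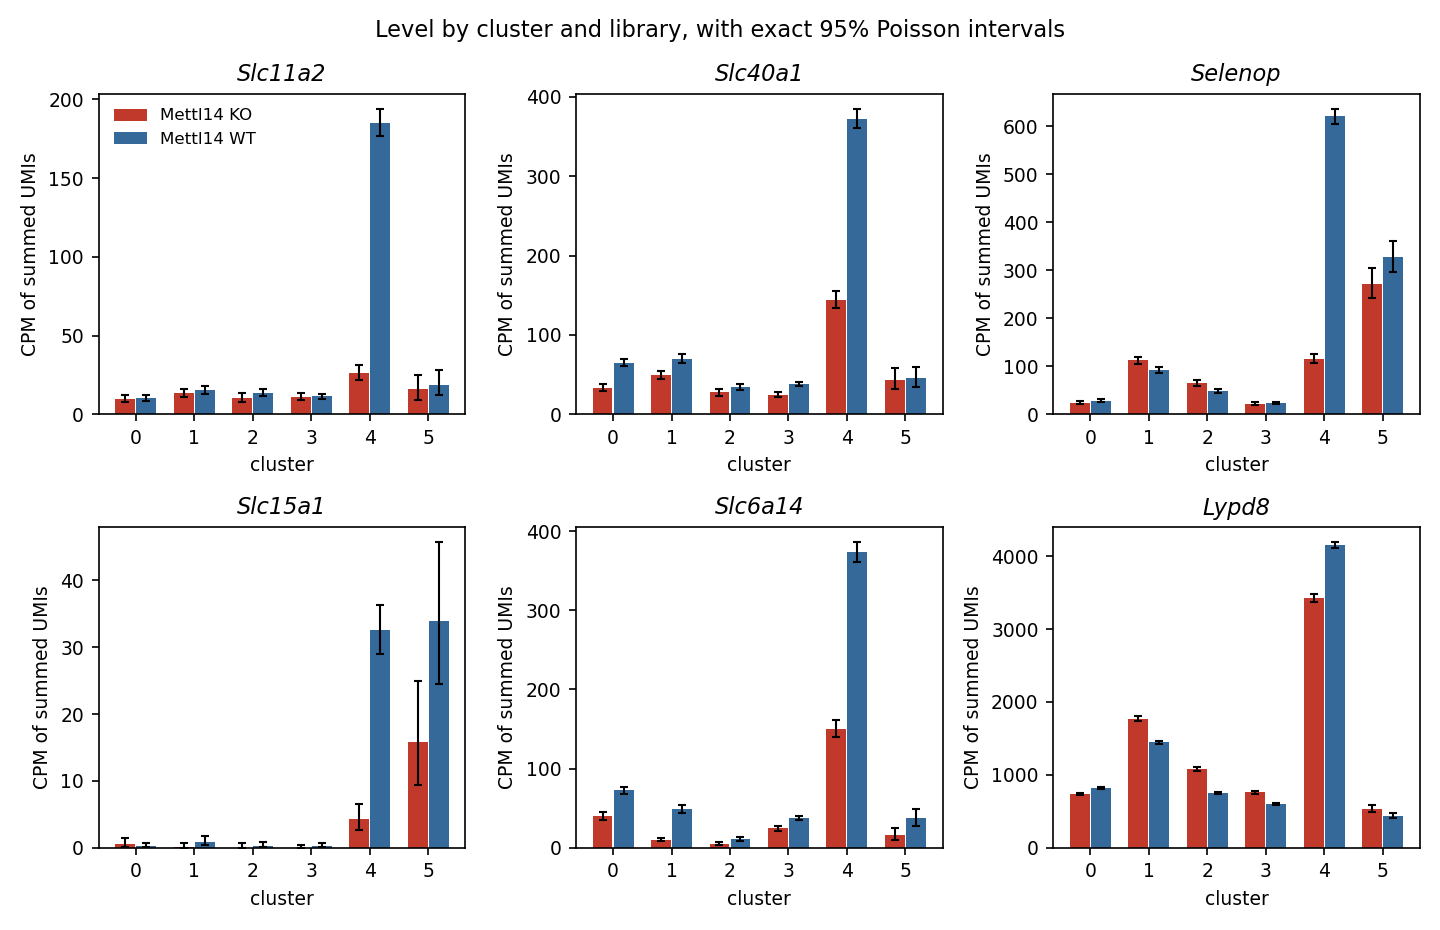
Level in CPM of summed UMIs (vertical axis) of 6 genes by cluster number (horizontal axis) in the KO library (red) and the WT library (blue), with exact 95% Poisson intervals; cluster 6, which held 31 KO and 117 WT cells, is not drawn. Slc11a2 stands at 185.3 CPM in WT cells of cluster 4 and at 26.3 CPM in KO cells, while every other bar of that gene lies under 20 CPM.

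Of 10 measured nutrient transporters and peptidases of the brush border, 6 were lower, 0 were higher and 4 stayed within 2-fold; the median was −1.40. That list was also drawn up after the data were seen, and it counts the zinc transporter Slc39a5 while the zinc importer Slc39a4 is counted with the metallothioneins. The dipeptide transporter Slc15a1 had 21 UMIs in KO and 319 in WT (−2.94, −3.65 to −2.30; −0.85 outside), and 21 of the KO and 316 of the WT UMIs lay in marker-positive cells. The amino acid transporter Slc6a14, the phosphate transporter family gene Slc17a4, Slc39a5 and Mep1a were lower as well, with ratios of −1.31, −2.04, −2.40 and −1.50, against −1.08, −1.37, −3.01 and −2.27 outside. Slc39a4 was higher, with 114.3 CPM in KO and 29.6 in WT (1.95, 1.74 to 2.16; 1.25 outside). Lypd8, which keeps flagellated bacteria from the colon surface, stood within 2-fold, at 3426 CPM in KO and 4150 in WT.

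Among genes of xenobiotic, bile acid and retinoid metabolism more were lower than higher. Of 25 measured genes 7 were lower and 1 was higher, with a median of −0.50, and 17 stayed within 2-fold. The lower ones were 5 cytochromes P450 and 2 glutathione transferases. Cyp2c55 had 124 UMIs in KO and 1408 in WT (−2.52, −2.79 to −2.25), Cyp2s1 had 30 in KO and 354 in WT (−2.57), and Cyp2d26 had 70 in KO and 655 in WT (−2.24); outside the cluster these 3 stood at −1.79, −2.0 and −1.83. Cyp3a13 (−1.21), Cyp2c65 (−1.17), Gsta1 (−1.32) and Gstm3 (−1.06) were lower by less. The ratio of Gsta1 was 0.20 among marker-positive cells, and these families hold near-identical copies between which reads could be split. Slc51b, the second subunit of the basolateral bile acid exporter, was the higher gene, with 196 UMIs in KO and 50 in WT (2.96, 2.50 to 3.44), while its partner Slc51a had 21.0 CPM in KO and 29.8 in WT (−0.50). The thyroid hormone deiodinase gene Dio1 was among the 15 lowest genes (−2.61), and stood at −2.26 outside the cluster.

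Structural and regulatory genes of absorptive cells mostly stayed within 2-fold. So did most measured genes of the cluster, of which 7.38% were higher and 2.9% lower. Of 19 measured brush border and cytoskeleton genes, Anks4b was higher (1.08) and Espn lower (−1.31), with a median of −0.29. Of 19 junction genes, Cldn2, a claudin that forms cation pores, had 34 CPM in KO and 104.3 in WT (−1.62, −1.86 to −1.38) and Cldn15 was lower as well (−1.70), with a list median of −0.16. Of 19 measured intestinal transcription factors 1 was lower and 0 higher, with a median of −0.18. Hnf4a, a regulator of intestinal identity, had 82.3 CPM in KO and 132.1 in WT (−0.68). None of 22 measured fatty acid oxidation and ketogenesis genes passed the rule, with a median of −0.16. Of 42 measured nuclear genes of the respiratory chain 2 were higher, Uqcrq (1.40) and Uqcrfs1 (1.13), with a median of 0.31.

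**Figure D4:**
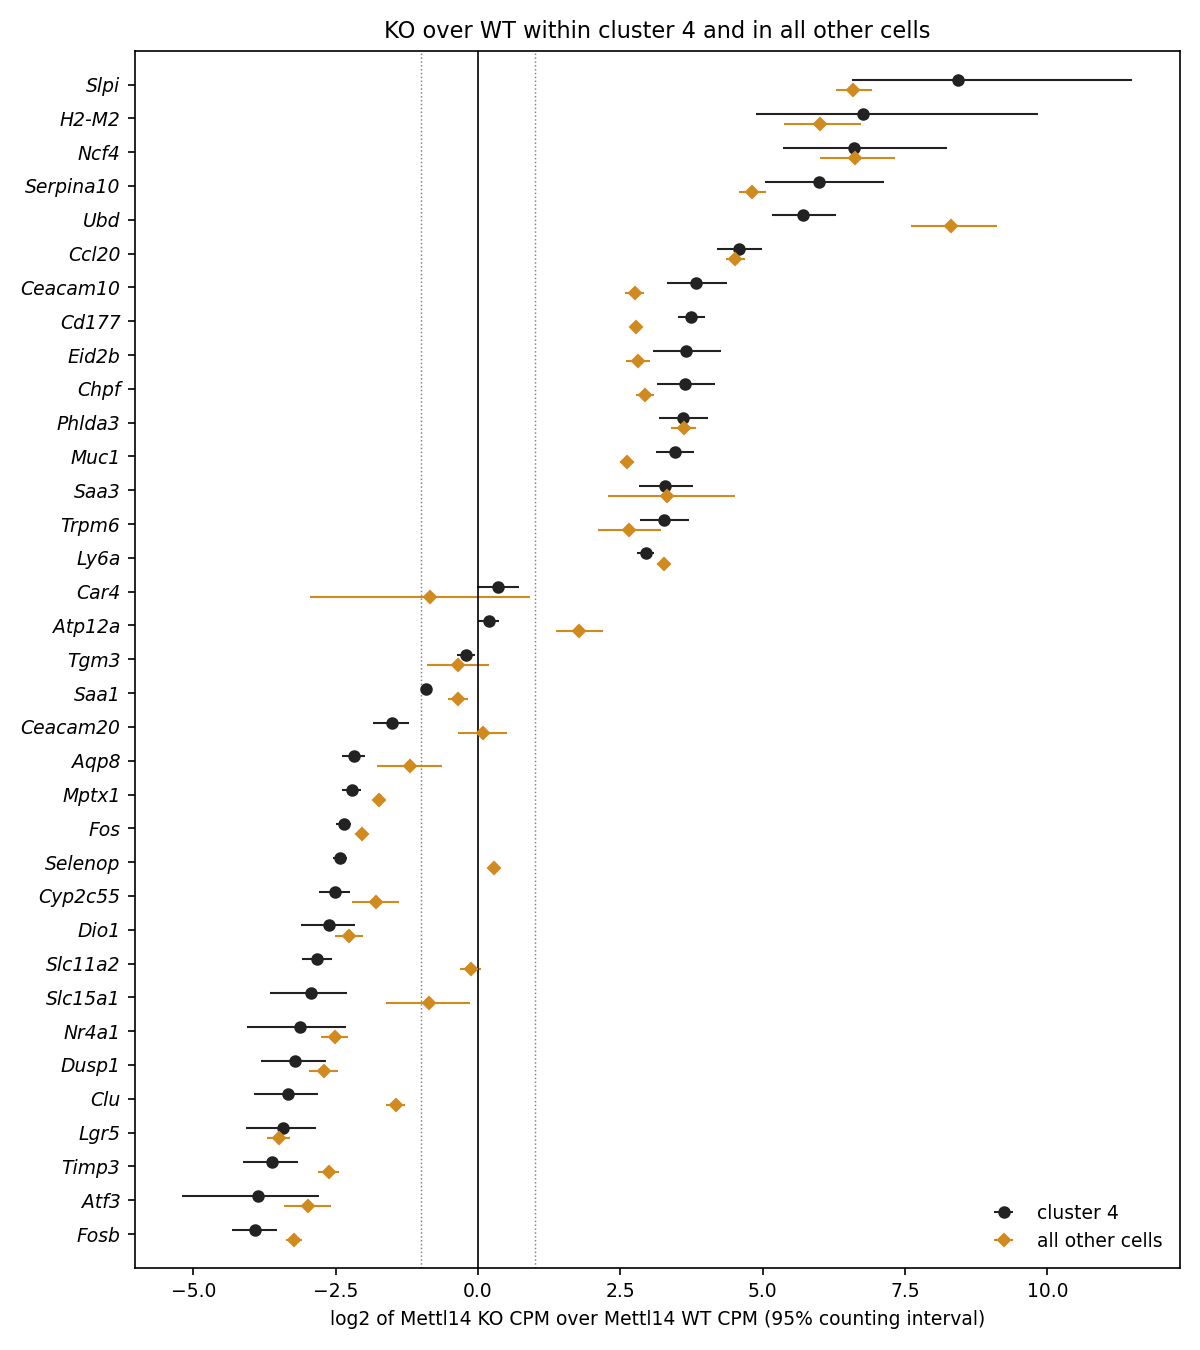
Log2 ratio of KO over WT CPM (horizontal axis) in cluster 4 (black circles) and in all other cells (orange diamonds), with 95% counting intervals, for the 15 highest and 14 of the 15 lowest genes within cluster 4, the 5 defining markers and Saa1. Dotted lines mark 2-fold. Slc11a2 stands at −2.82 in cluster 4 and −0.13 outside, Selenop at −2.42 and 0.29, while Ccl20 stands at 4.58 and 4.52.

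The genes with the highest KO to WT ratio in cluster 4 were also higher in the other cells. Slpi, a secreted protease inhibitor with antimicrobial activity, had 350 UMIs in KO, 94 of them in 1 cell, and 2 in WT, a log2 ratio of 8.44 (6.58 to 11.49). Ubd, a small protein that tags others for the proteasome in inflamed cells, had 763 UMIs in KO and 29 in WT (5.71), and 8.30 outside the cluster. Cd177 had 1139 UMIs in KO and 169 in WT (3.74, 3.51 to 3.98) and was found in 70.4% of KO and 16.5% of WT cells. Ly6a, a surface protein of regenerating epithelium, had 361.2 CPM in KO and 46.8 in WT (2.95, 2.80 to 3.10). Muc1, a membrane mucin, had 98.5 CPM in KO and 8.97 in WT (3.46). Ncf4, Serpina10, H2-M2, Ccl20, Ceacam10, Phlda3, Chpf and Eid2b had ratios in cluster 4 between 3.60 and 6.77. The other 2 of the 15 were the magnesium channel gene Trpm6 (276 UMIs in KO and 57 in WT, 3.26; 2.64 outside) and the acute phase gene Saa3 (232 UMIs in KO and 47 in WT, 3.29; 3.31 outside). Both had their higher level in cluster 4: Trpm6 was 3.64 above the other cells in KO and 3.02 in WT, and Saa3 4.72 in KO and 4.75 in WT.

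Targets and regulators of NF-kappaB were higher in part. Of 15 measured genes 5 were higher and 0 lower, with a median of 0.45, where 7.38% of all measured genes were higher. The chemokine gene Ccl20 (chromosome 1, 83116766 to 83119167, plus strand) had 710 UMIs or 143.6 CPM in KO and 59 UMIs or 6.02 CPM in WT, a ratio of 4.58 (4.19 to 4.99). Nfkbia, the inhibitor that the pathway itself induces, had 238.4 CPM in KO and 69.3 in WT (1.78, 1.64 to 1.92), with like ratios of 1.71 in marker-positive and 1.78 in the remaining cells. Tnip3 (2.42), Nfkb2 (2.02) and Birc3 (1.81) were the others. The promoter of Ccl20 is shown because it is the only one of the 4 windows read here with the kappaB letters, at −80, and it also has the half-site at −174; capitals mark both (RefSeq, GRCm38.p6, chr1:83116516-83116765, plus strand).
Ccl20: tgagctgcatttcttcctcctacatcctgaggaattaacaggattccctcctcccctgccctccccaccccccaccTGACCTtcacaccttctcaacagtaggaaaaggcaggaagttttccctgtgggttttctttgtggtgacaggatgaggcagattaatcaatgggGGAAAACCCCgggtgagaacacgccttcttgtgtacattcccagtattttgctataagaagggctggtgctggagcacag

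Other defence and stress lists moved in the same direction for some of their members. Of 13 measured acute phase and antimicrobial genes 4 were higher, Slpi, Saa3, Reg3g and C3, and 1 was lower, the copper carrier ceruloplasmin (Cp, −1.48), with a median of 0.74. Reg3g, a lectin that kills Gram-positive bacteria, had 252 UMIs in KO and 108 in WT (2.21), and 72 of the WT UMIs lay in 1 cell. Of 17 measured interferon response genes 3 were higher, Ubd, Isg15 (2.12) and Rtp4 (2.36), and 0 lower, with a median of 0.18. Both Isg15 and Rtp4 had larger ratios outside the cluster, 4.0 and 4.33. Of 12 measured p53 target genes 5 were higher and 0 lower, with a median of 0.82: Phlda3 (3.60), the secreted stress signal Gdf15 (3.09), Zmat3 (1.57), the pore-forming Bax (1.54) and Aen (1.26). Among 21 measured TNF, death receptor and apoptosis genes, the adaptors Tradd (1.34) and Fadd (1.05) and Bax were higher and the gasdermin Gsdmc4 was lower (−1.45), with a median of 0.32. Of 17 measured genes of the integrated stress and unfolded protein responses, the chaperone Hspa5 (630.5 CPM in KO and 226.4 in WT, 1.48), Atf5 and Asns were higher and Atf3 was lower.

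Antigen presentation was mixed. Of 13 measured MHC class I and peptide loading genes, H2-M2 was higher, with 110 UMIs in KO and 2 in WT (6.77, 4.88 to 9.83), and H2-T23 (−1.15) and H2-Q2 (−1.05) were lower, though the list's median was 0.59. Of 2 measured MHC class II genes, H2-Aa was lower, with 27 UMIs in KO and 211 in WT (−1.98). That value was 0.25 in cells with Y-linked and no Xist UMIs, and −1.46 without the cells rich in immune UMIs.

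Immediate early genes respond quickly to growth factors and to tissue dissociation. Of 19 measured genes 9 were lower and none was higher, the median was −0.67, and 2.9% of all measured genes were lower. Fosb had 55 UMIs in KO and 1639 in WT (−3.91, −4.32 to −3.52), Fos had 102.5 CPM in KO and 524.6 in WT (−2.36, −2.49 to −2.22), and Jun had 192.1 CPM in KO and 513.7 in WT (−1.42). Atf3, Dusp1, Nr4a1, Egr1, Zfp36 and Ier2 were the others, with ratios from −3.86 to −1.34. All 9 had a ratio below 0 outside the cluster as well, with Fosb at −3.23 and Fos at −2.04.

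Of 16 measured stem cell and Wnt genes, none of which is among the leading genes of cluster 4, 5 were lower and none was higher; the median was −0.60. The receptor gene Lgr5, a marker of crypt base stem cells, had 25 UMIs in KO and 532 in WT (−3.42, −4.06 to −2.85), against −3.49 outside, and Smoc2, Hopx, Myc and Rnf43 were lower, with ratios of −1.76, −1.59, −1.32 and −1.13. Lgr5 was present in 372 UMIs among the marker-negative WT cells and 24 among the marker-negative KO cells. Clu, a secreted chaperone of regenerating epithelium, had 30 UMIs in KO and 604 in WT (−3.34, −3.92 to −2.81), against −1.44 outside. Among the other clusters it was 0.12 in cluster 0 and −1.97, −1.63, −2.50 and −2.43 in clusters 1, 2, 3 and 5. Timp3, a metalloprotease inhibitor, had 39 UMIs in KO and 953 in WT (−3.62; −2.62 outside). Mptx1, a pentraxin, had 348 UMIs in KO and 3211 in WT (−2.22), of which 877 lay in 1 WT cell, and the ratio was −0.95 in cells with a goblet marker share at most the median and −0.32 in cells with Y-linked and no Xist UMIs.

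Of 9 measured genes of G2 and M phase 3 were higher and 0 lower, with a median of 0.55: Birc5, a protein of chromosome segregation and cell survival, had 80.9 CPM in KO and 15.2 in WT (2.41, 2.14 to 2.69), the tubulin Tubb4b had 1.22 and Mki67 1.04. Of 20 measured S phase genes Fen1 alone was higher (1.47), with a median of 0.06. The largest set of KO cells, 285, lay in a cycling-scored cluster in the clustering described above. The cycling markers behind that score include Birc5 and Mki67, so the score is not separate from these values. Cycling markers summed to 222.6 CPM in KO cells of cluster 4, against 1747 CPM in KO cells of cluster 3.

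Mucus genes gave opposite signs. Of 13 measured genes 4 were higher and 1 lower, with a median of 0.55. Tff3, which protects mucosal surfaces, had 1326 CPM in KO and 249.7 in WT (2.41, 2.34 to 2.48), Zg16 had 500.3 CPM in KO and 83.2 in WT (2.59), and Spink4, a protease inhibitor of goblet cells, had 440.6 CPM in KO and 1299 in WT (−1.56). Goblet markers took over 1% of the UMIs in 26 KO cells (5.31%) and 48 WT cells (7.27%) of the cluster, against a median of 0.0545% in KO and 0.0565% in WT. Within cells with a goblet share at most the median, Tff3 stood at 2.63 and Spink4 at −0.98.

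Of 17 measured genes that write, read or erase N6-methyladenosine, the writer adaptor Rbm15 (1.13) and the reader Ythdf2 (184.0 CPM in KO and 75 in WT, 1.29) were higher and 0 were lower, with a median of 0.27. The writer Mettl14 itself (−1.43) is not among these 17, since it was under 20 CPM in both libraries. Of 14 measured regeneration genes Ly6a, Ly6e, Ly6g and the growth factor Areg (1.64) were higher and Clu lower. The smaller lists gave Sprr2a3 higher among 2 cornified envelope genes, Fabp5 and Fabp6 higher among 6 lipid genes, Slc39a4 higher among 5 metallothionein and zinc genes, and Tff3 higher with Cps1 and Mep1a lower among 8 suckling-stage and urea cycle genes. Of 3 measured members of the carcinoembryonic antigen family, Ceacam10 was higher and Ceacam20 lower.

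**Figure D5:**
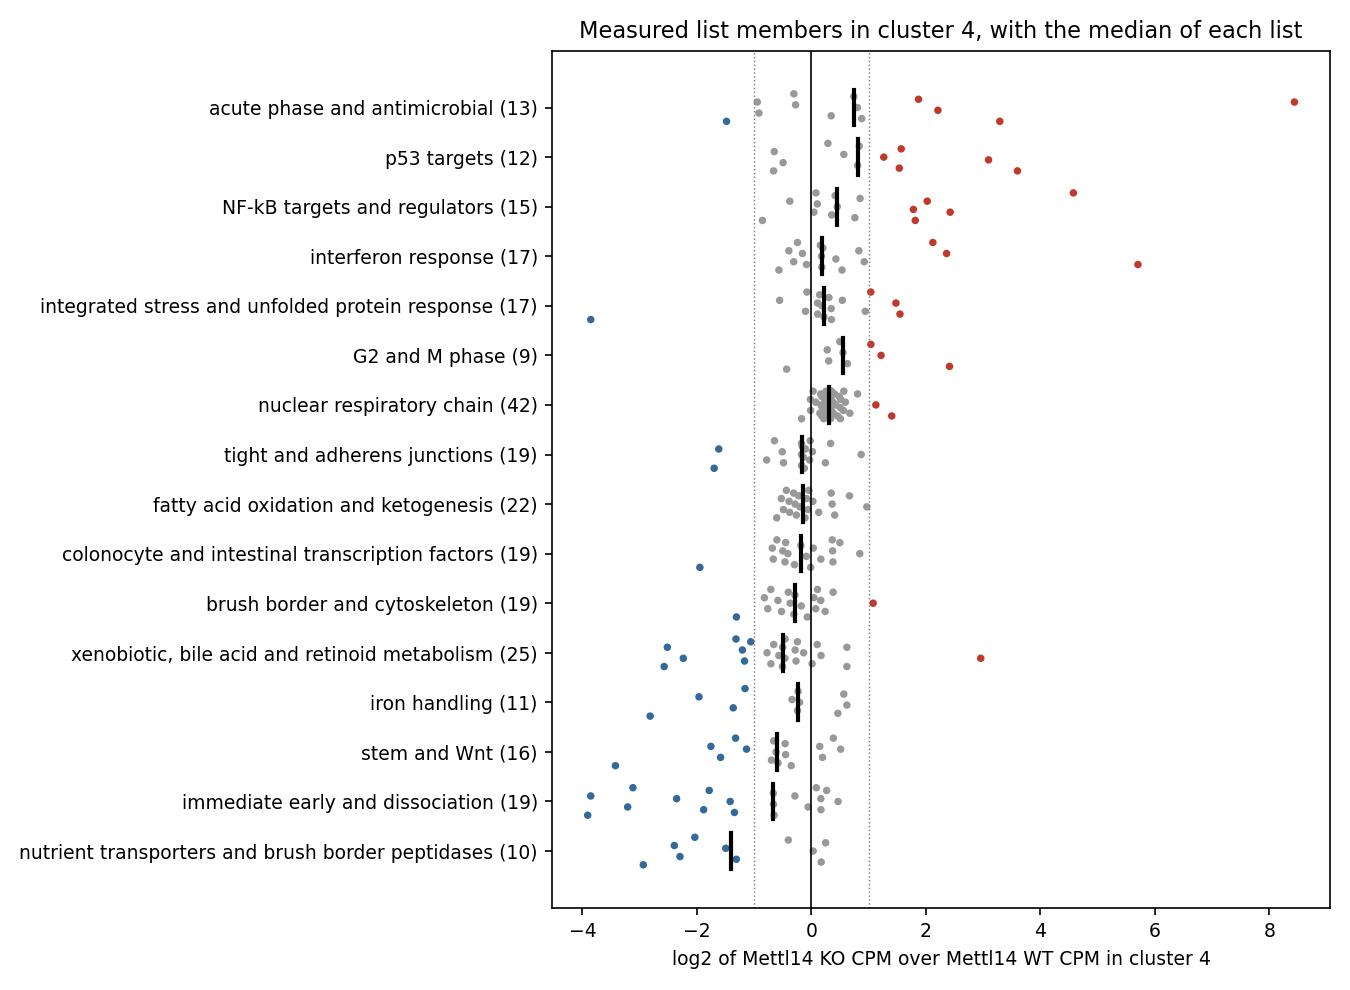
Log2 ratio of KO over WT CPM in cluster 4 (horizontal axis) of every measured member of 16 gene lists (vertical axis, number of measured members in brackets). Red points are at least 2-fold higher, blue points at least 2-fold lower and grey points neither; black bars are the medians and dotted lines mark 2-fold. Medians run from −1.40 for nutrient transporters and peptidases to 0.82 for p53 targets, and points on both sides of 0 are seen in most lists.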

How the data were processed

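The deposited files are a matrix of raw UMI counts (17829 genes, 7863 cells) and a table of each cell's library and cluster. Per the labels, live EpCAM+ colonic epithelial cells were processed with 10x Genomics 3' v2. The submitters' processing notes name bcl2fastq, Cell Ranger and mm10 without versions; the filtering and clustering methods are not given in the sources used here. Every deposited cell was under 20% mitochondrial UMIs.

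Counts of cluster 4 were summed per library and divided by the library's cluster 4 total (CPM). Log2 ratios have exact conditional binomial intervals, levels exact Poisson intervals and shares exact Clopper-Pearson intervals, all at 95% and for counting error only. Genes entered the comparison from 50 UMIs over the 2 libraries together and 20 CPM in 1 of them, and were called at 2-fold; CPM scales the counts to a common total. For shares, cells were also thinned to 3000 UMIs. No doublet caller was run, and cells with Xist and Y-linked UMIs were left out as an alternative. The genes named are the 15 leading genes of the cluster, the 15 highest and 15 lowest KO to WT ratios by the interval bound nearest to 0, up to 6 members of each of 33 lists, the 5 closest to Aqp8, and fixed markers; 30 called predicted, mitochondrial, ribosomal-protein, haemoglobin and sex-linked genes were counted but not named. A few other genes are not reported here. Some members named in a list fell outside these 6 and were named after their values were seen, as were the members that complete a count. The members and lists were chosen with earlier results of these data known, and 2 lists, iron handling and nutrient transporters, were added after the data were seen. Own clusters used scikit-learn 1.9.0 for components and neighbours and python-igraph 0.11.9 for Leiden clustering (2000 variable genes, 30 components, 15 neighbours, Leiden resolution 0.5). Positions are from GENCODE vM21 and promoters from RefSeq. The calculation was run on simulated counts drawn with the same independent counting error that the intervals assume. It therefore checks the arithmetic only, as UMIs gathered in a few cells were not simulated. Python 3.11.15, numpy 2.4.6, scipy 1.17.1 and pandas 2.3.3 were used.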

Additional observations from a re-analysis of the deposited data

Results flagged for a closer look

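Slc26a3, the chloride and bicarbonate exchanger of the colonocyte's apical membrane, stood in opposite directions inside and outside cluster 4. Within the cluster it had 21.0 CPM in KO and 6.63 CPM in WT, a log2 ratio of 1.67 (1.21 to 2.14), and in all other cells 1.38 CPM in KO and 3.37 CPM in WT, a ratio of −1.29 (−1.80 to −0.81). The ratios differ by 2.96 on the log2 scale. With 1 library per genotype the difference was not tested. Both levels in the other cells were under the 20 CPM that a gene needed in a library to count as measured. Slc26a3 was therefore not measured there by that rule, and its outside ratio describes a gene near the floor. Among cells of cluster 4 with a low mitochondrial share it had too few UMIs for a value.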

How the results depend on the processing

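No paired analysis was possible because each genotype has 1 library. Of 105 named genes past 2-fold, 105 kept their direction in 9 of 12 settings; the exceptions were cells with at most 10% mitochondrial UMIs (102 of 103 with a value; Guca2b −1.04), cells with Y-linked and no Xist UMIs (104; H2-Aa 0.25) and marker-positive cells (104; Gsta1 0.20). Still past 2-fold were 80 at most 10% mitochondrial UMIs, 88 in Y-linked cells, 94 in marker-positive cells, 95 thinned, 96 under the CPM without 3 gene classes, and 99 to 104 in the other 7 settings. The cause was not tested. The 455 higher genes became 256 with at least 50 CPM, 1081 at 1.5-fold and 263 by the interval bound. The 179 lower genes became 68 with at least 50 CPM, 625 at 1.5-fold, 101 by the interval bound, 367 with CPM without mitochondrial, ribosomal-protein and haemoglobin genes, 270 in Xist cells, 285 in cells with a goblet share at most the median, 279 after thinning and 410 in marker-positive cells, the last chosen after seeing the data.

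The Aqp8 log2 ratio was −2.45 as a mean of per-cell CPM, −1.42 (−3.21 to 0.08) at most 10% mitochondrial UMIs, −2.77 in Xist cells, −1.50 in Y-linked cells, −2.78 thinned, −1.78 in marker-positive cells and −2.49 without the top cells. Saa1 was −1.67 as a mean of per-cell CPM, 1.23 at most 10% mitochondrial UMIs, −1.48 in Xist cells, −1.11 in Y-linked cells, −1.70 thinned, −0.54 in marker-positive cells and −1.05 without the top cells; it was −1.02 under the CPM without the 3 gene classes and −0.76 without cells that had both kinds of sex-linked UMI. Tgm3 was 0.99 at most 10% mitochondrial UMIs, −0.52 in Xist cells and 0.20 in marker-positive cells.

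At most 10% mitochondrial UMIs the share of cells with Aqp8 was 0.8% in KO and 5.32% in WT, with Saa1 7.2% in KO and 11.7% in WT, and with Tgm3 1.6% in KO and 3.19% in WT; cluster 4 then held 10.6% of KO and 8.87% of WT cells, the opposite order to all cells. In Y-linked cells Aqp8 was 3.73% in KO and 14.7% in WT, Saa1 24.1% in WT and Tgm3 14.7% in WT. With a goblet share at most the median, Aqp8 was 29.9% in WT, Saa1 30.3% in KO and 34.9% in WT, and Tgm3 22.3% in KO and 23.5% in WT. After thinning, Aqp8 was 3.54% in KO and 16.4% in WT, Saa1 15.8% in KO and 18.3% in WT, and Tgm3 11.5% in KO and 13% in WT. Own colonocyte-scored clusters held 12 KO cells and gave no value. Depth limits shares: a cell without a UMI may still express the gene.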

Other observations

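Fhl1, a LIM-domain protein chosen after its values were seen, had 103 UMIs in KO and 774 in WT cells of cluster 4, a log2 ratio of −1.92, against 0.94 in all other cells. Over thinned cells its Spearman correlation with Aqp8 was 0.26 in KO and 0.60 in WT. The difference between the 2 ratios was not tested.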
